A study of Mus musculus with 7 samples.

Results

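The sarcomere genes described here are 51 genes that encode proteins of the contractile unit of striated muscle and of the Z-disc that borders it, out of 31531 genes in the table. They were listed by gene symbol for what their proteins are known for, by a rule that sets no measured threshold but with earlier results of these data known, and the myosin heavy chains were left out. All 51 were found and all 51 passed the filter on low values, a mean normalized count of at least 5 over all 7 libraries. By role they comprise 16 thin filament genes, 8 thick filament genes, 4 genes of titin and the M-band, 19 Z-disc genes and 4 genes of assembly and turnover. RNA came from muscle fibers of C57BL/6 mouse fetuses at E17.5, with 1 library per fetus: 4 WT fetuses, and 3 fetuses homozygous for dyW, an allele that disrupts Lama2 in the whole body and models LAMA2-congenital muscular dystrophy. Mice were bred by crossing heterozygotes, and neither group received a treatment. Epaxial muscles of the back were digested with dispase II and collagenase A, and what stayed on a strainer was lysed as fibers, so that other cells held by the strainer also entered the lysate. The comparison asks which of these genes differ between dyW and WT fibers before birth.

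In a sarcomere, thin filaments of actin, tropomyosin and troponin slide past thick filaments of myosin when calcium binds troponin. Titin spans from the Z-disc to the M-band and holds the thick filament in place, whereas α-actinin crosslinks the thin filaments at the Z-disc, a site that also bears and senses mechanical load. Fetal muscle expresses troponin, myosin light chain and actin genes of slow, fast and cardiac name side by side, and the balance shifts towards the adult fiber types after birth.

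Libraries are named by group and replicate number in their labels. Reads counted on genes ranged from 470804 to 2220813 for WT and from 3663905 to 18297106 for dyW, so a single read was worth 2.05 to 5.33 normalized counts in WT and 0.0974 to 0.488 in dyW. Normalized counts summed to 2.51e+06 to 5.54e+06 in WT and to 1.40e+06 to 2.31e+06 in dyW. Every dyW library was thus lower in total on the deposited scale, on which the levels below are given. The targeted gene, Lama2, was at 90.6, 111, 105 and 107 normalized counts in WT1 to WT4 and at 4.29 and 6.07 in dyW1 and dyW2, but at 140 in the library labelled dyW3, which goes against that label (log2 fold change -2.58 ± 1.10 SE, limma adjusted p = 0.103). Libraries also stood apart in their content. In dyW1, 10225 of the 15829 reads on the 51 genes fell on Tpm1. It held no read of 24 of the genes (47.1%), a share near the 40.4% of all genes that passed the filter. The summed level of 6 cartilage genes was 442093 in WT1 against 213 to 8720 in WT2 to WT4 and 140 to 1596 in dyW. The summed level of 9 fibroblast genes was 6051 to 15366 in WT and 26635 to 33856 in dyW with no overlap, but its members did not move together in dyW1, where Col1a1, Col1a2 and Fn1 made up most of the sum and Col3a1, at 232, lay below every WT library (581 to 4129). That of 8 endothelial genes was 602 to 752 in WT and 839 to 1517 in dyW, but its members did not move together either. Pecam1 and Tie1 had log2 fold changes below 0 (-0.57 ± 0.59 and -0.68 ± 0.81 SE), and the other endothelial genes had values above 0. The part of these differences in library content in the results below was not tested. In RNA from a bulk lysate, fewer fibers and less of an RNA per fiber cannot be told apart. With 1 library per fetus, p-values measure the spread between fetuses together with that between libraries.

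At the thresholds of an adjusted p under 0.01 and an absolute log2 fold change over 1.5 (limma on log2(normalized count + 1), adjusted over 25791 genes), 1 of the 51 sarcomere genes was lower in dyW (1.96%, against 18.7% of all genes tested) and 0 were higher (0.0659% of all genes). The gene was Xirp1. With an adjusted p under 0.05, 5 were lower (9.8%, against 29.6%), namely Xirp1, Ttn, Myom3, Mybpc2 and Actn3, and 0 were higher (1.0%). At an unadjusted p under 0.05 the number was 15 (29.4%, against 44.3%), and voom on recovered reads gave 1 lower gene at either threshold (20.7% and 26.6% of all genes) and 0 higher. Of the 5 genes, Xirp1, Mybpc2 and Actn3 had dyW means below 5 (0.0422, 3.07 and 4.41), so they passed the filter through WT. Without a filter the same 5 were lower at an adjusted p under 0.05 (9.8%, against 26.2%). In 10 genes every dyW library lay below every WT library (19.6%, against 31.5%), and in 0 genes every dyW library lay above (3.28%). Each of these shares was below that of all tested genes. Of the 51 genes, 47 had a log2 fold change below 0 (92.2%, against 79.6%) and their median was -2.04 against -1.99 for all tested genes. That closeness depended on the filter and on the kind of scaling: the medians were -1.54 and 0.20 among genes with a mean of at least 50 (29 of the 51), and -0.94 and 0.06 with quantile normalization. With the same total for all libraries they stayed close, at -1.29 and -1.24.

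These numbers turned on single libraries. Without dyW1, 29 of the 51 fold changes were below 0 (56.9%, against 76.8%), the median was -0.54 against -2.10 for all genes, and 2 genes, Xirp1 and Unc45b, were lower at an adjusted p under 0.05 (3.92%, against 31.2%). In 2 genes, Tnnt2 and Pdlim5, both remaining dyW libraries then lay above every WT library (3.92%, against 6.32%), and in 10 they lay below (19.6%, against 39.1%). Without WT1 and dyW1 together 43 were below 0 (84.3%, against 77.1%), the median was -0.84 against -2.04 and 3 genes were lower at that threshold (Xirp1, Ttn and Mylpf, 5.88% against 30.8%). Without the library labelled dyW3, the one whose Lama2 level goes against its label, 4 genes passed the stricter threshold (Xirp1, Xirp2, Mybph and Trim63, 7.84% against 25.8%) and 11 the looser one (21.6%, against 41.4%). Without dyW2 the looser count was 15 (29.4%, against 24.0%) and the stricter count 0 (0.0% of all genes), whereas leaving out WT2 or WT4 left 1 gene at the looser threshold (of 22.2% and 22.1% of all genes) and leaving out WT1 or WT3 left 2 and 3 (27.4% and 28.9%).

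**Figure D1:**
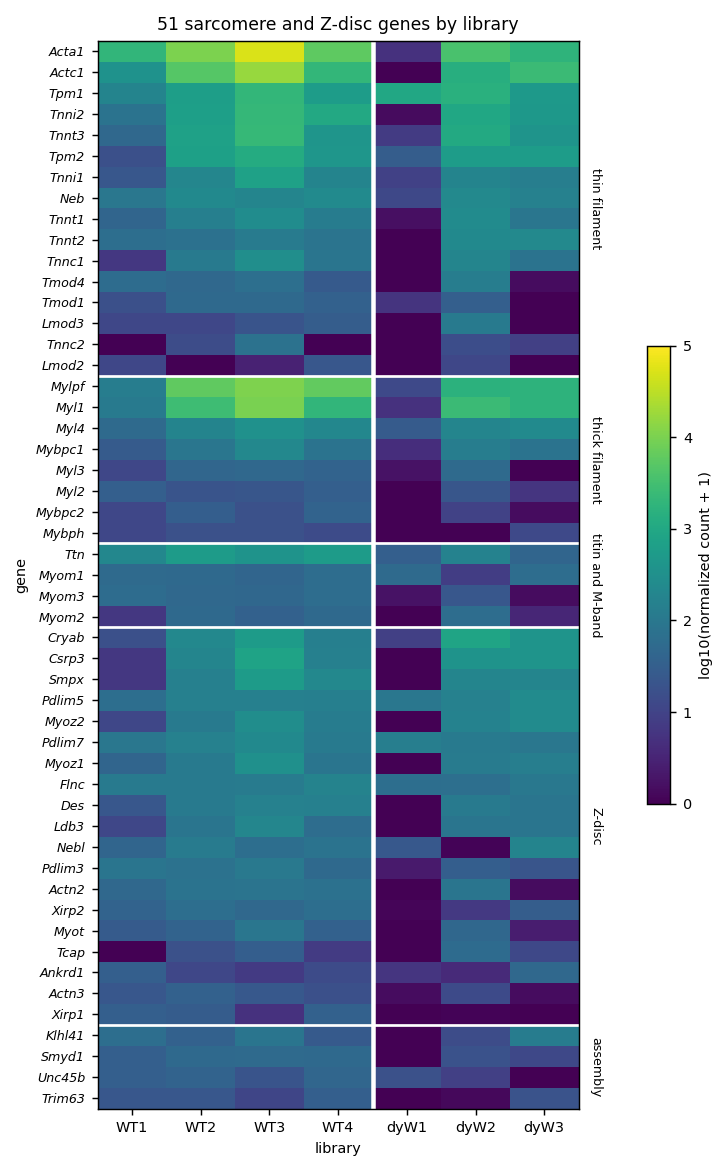
Levels of the 51 genes in each of the 7 libraries, as log10(normalized count + 1), ordered by role and by mean level within a role. The column of dyW1 is dark for most rows, Tpm1 being the brightest exception, and WT3 is the brightest column of both actin rows and of Mylpf, Myl1 and Myl4.

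**Figure D2:**
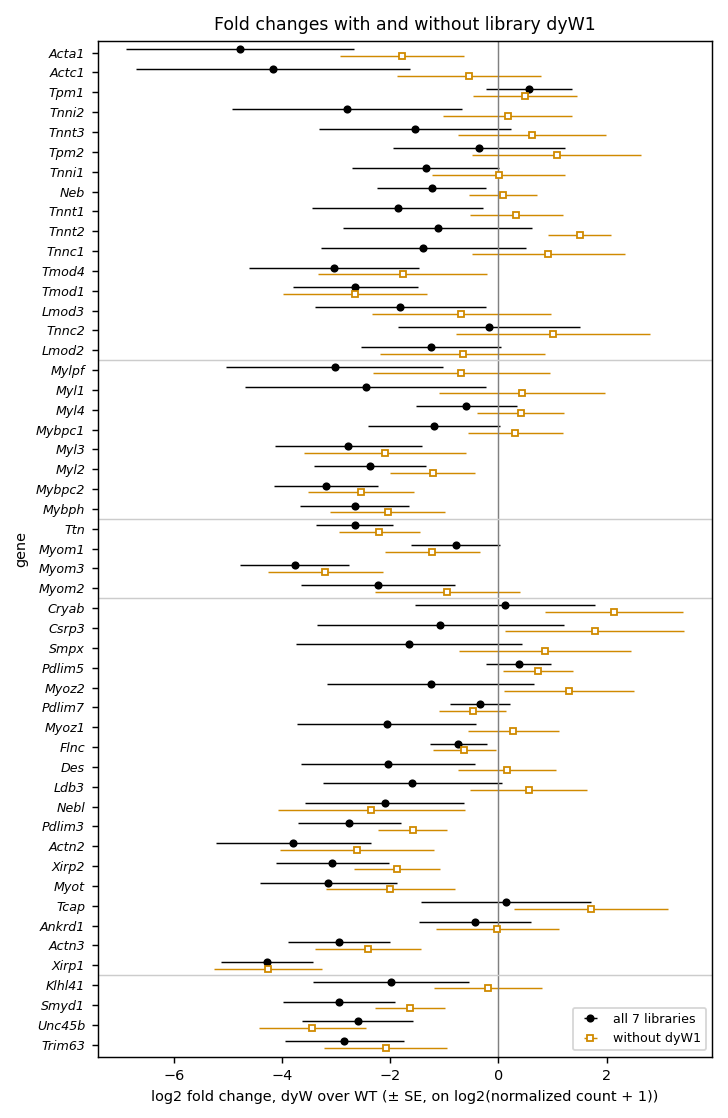
Log2 fold change of dyW over WT with its SE for each of the 51 genes, from all 7 libraries (black points) and without dyW1 (open orange squares). Most thin filament genes and many Z-disc genes move from below 0 to 0 or above without dyW1, whereas Xirp1, Ttn, Myom3, Mybpc2 and Actn3 stay below -2. So do Unc45b, Tmod1, Actn2, Nebl, Myl3, Trim63 and Mybph.

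The library dyW1 was the lowest of the 7, alone, for 34 of the 51 genes (66.7%, against 9.66% of all tested genes), and it held no read of 24 of them (47.1%, against 40.4%) despite its 14363788 reads. Ties at 0 do not count as lowest alone, and they were rarer among the 51. dyW2 held no read of 1.96% of them, against 49.3% of all tested genes, and the library labelled dyW3 of 11.8%, against 34.1%. WT1 was the lowest WT library for 38 genes (74.5%, against 30.5%), and WT3 was the highest of all 7 for 26 (51%, against 5.25%). The summed share of normalized counts on the 51 genes was 0.180%, 0.765%, 2.31% and 0.405% in WT1 to WT4, 0.110% in dyW1, 0.770% in dyW2 and 0.743% in the library labelled dyW3. dyW2 and the library labelled dyW3 lay inside the WT range and dyW1 lay below it. The mean share was 0.914% ± 0.959 for WT (SD, n = 4) and 0.541% ± 0.373 for dyW (SD, n = 3) (p = 0.686 by two-sided exact permutation, which can go no lower than 0.0571). The difference turned positive, to 0.0909 percentage points, without WT3.

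Among the thin filament genes, 0 of 16 passed the looser threshold, and their median log2 fold change was -1.47, or 0.13 without dyW1. The skeletal actin gene Acta1 (ENSMUSG00000031972) was the most abundant gene of the set, at 1973, 10199, 52989 and 5846 normalized counts in WT1 to WT4 and 4.09, 3667 and 1807 in dyW1 to dyW3. WT3 lay far above the other WT libraries and dyW1 far below all, and the groups overlapped, since dyW2 exceeded WT1. The log2 fold change was -4.78 ± 2.11 (SE; adjusted p = 0.113) and -1.79 ± 1.14 (adjusted p = 0.263) without dyW1. Actc1, the cardiac actin gene that fetal skeletal muscle also uses, was at 352, 4738, 16808 and 2004 in WT and 0, 1391 and 2537 in dyW, with a log2 fold change of -4.17 ± 2.54 (adjusted p = 0.238). It followed Acta1 across the WT libraries, and dyW1 held no read of it. Together both actins made up 35% to 66.4% of the summed level of the set in WT, 28.4% and 32.7% in dyW2 and the library labelled dyW3, and 0.265% in dyW1.

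Upstream windows are shown for 3 genes that were low together in dyW1 (Acta1, Actc1 and the light chain gene Mylpf) and for Tpm1, which was not. Each holds the 250 bases before the start of the canonical transcript in GRCm39, from 5′ to 3′ on the gene's strand, with capitals at every match, on either strand, to the E-box that myogenic factors bind (CAGCTG), to a TATA box spelled as TATAAA, to the M-CAT element (CATTCCT), to the CArG box or to the MEF2 site.
Acta1 (chr8:124621687-124621936, minus strand): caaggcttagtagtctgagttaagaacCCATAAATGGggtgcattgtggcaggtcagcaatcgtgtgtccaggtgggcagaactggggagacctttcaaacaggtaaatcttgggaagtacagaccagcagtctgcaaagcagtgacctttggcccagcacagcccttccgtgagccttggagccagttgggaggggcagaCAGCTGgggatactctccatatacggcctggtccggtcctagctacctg
Actc1 (chr2:113884044-113884293, minus strand): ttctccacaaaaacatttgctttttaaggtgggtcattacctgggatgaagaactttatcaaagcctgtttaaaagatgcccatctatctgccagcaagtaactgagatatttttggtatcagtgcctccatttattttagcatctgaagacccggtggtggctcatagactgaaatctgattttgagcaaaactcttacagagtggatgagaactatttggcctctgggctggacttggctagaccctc
Mylpf (chr7:126810530-126810779, plus strand): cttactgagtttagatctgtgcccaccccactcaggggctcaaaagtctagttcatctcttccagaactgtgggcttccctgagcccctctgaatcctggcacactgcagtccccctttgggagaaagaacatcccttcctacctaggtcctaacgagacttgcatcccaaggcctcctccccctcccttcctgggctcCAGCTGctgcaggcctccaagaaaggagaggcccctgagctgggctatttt
Tpm1 (chr9:66956938-66957187, minus strand): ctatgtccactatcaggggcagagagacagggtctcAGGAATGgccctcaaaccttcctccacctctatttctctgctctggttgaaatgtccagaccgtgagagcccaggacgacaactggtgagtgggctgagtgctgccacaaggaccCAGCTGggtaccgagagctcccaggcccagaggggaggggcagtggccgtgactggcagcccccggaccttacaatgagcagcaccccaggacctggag
Acta1 holds a CArG box match and an E-box, Mylpf holds an E-box, Tpm1 holds an E-box and an M-CAT element, and Actc1 holds none of the 5 motifs in this window. Over the 51 genes, CAGCTG occurred in 12 windows (23.5%, against 11.9% of 21770 windows of protein-coding genes), the MEF2 site in 6 (11.8%, against 2.79%), the CArG box in 3 (5.88%, against 1.4%), TATAAA in 5 (9.8%, against 11.9%) and CATTCCT in 2 (3.92%, against 4.44%). A match describes letters only and says nothing of a factor's binding in these fibers. Reads of the 2 actin genes could be told apart at this length: 40 of the 51 canonical transcripts shared no window of 50 bases with a transcript of another gene, Acta1 shared 1.94% and Actc1 0.223%, and the only gene over 10% was Myl1 with 21.4%, all with Mylf-ps.

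Tropomyosin winds along actin and gates myosin binding. Tpm1 was at 176, 639, 2078 and 592 normalized counts in WT and 996, 1461 and 509 in dyW. dyW1 was well inside the WT range here, unlike for the actins, and the groups overlapped (log2 fold change 0.57 ± 0.80, adjusted p = 0.613). Tpm2, the β-tropomyosin gene, was at 15.99, 680, 1214 and 419 in WT and 28.8, 585 and 581 in dyW, low in WT1 and dyW1 alike (log2 fold change -0.36 ± 1.58, adjusted p = 0.881).

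Troponin T anchors the calcium switch to tropomyosin. The fast gene Tnnt3 was at 48.0, 712, 2230 and 406 in WT and 6.24, 1085 and 385 in dyW, and the slow gene Tnnt1 at 42.7, 146, 269 and 123 and at 0.585, 254 and 89.9. In both, dyW2 and the library labelled dyW3 fell within the WT range. The cardiac gene Tnnt2, also made by fetal skeletal muscle, was at 64.0, 72.8, 117 and 81.8 in WT and 0, 240 and 228 in dyW, so that dyW1 was at 0 and the other dyW libraries were above every WT library. Its log2 fold change was -1.12 ± 1.74 (adjusted p = 0.651) in all libraries and 1.5 ± 0.58 (adjusted p = 0.0865) without dyW1. Troponin I, the inhibitory subunit, gave 80.0, 666, 2096 and 1051 for the fast gene Tnni2 in WT and 0.390, 938 and 465 in dyW, and 21.3, 199.6, 720.0 and 183 for the slow gene Tnni1 in WT and 8.38, 176 and 138 in dyW. Both groups overlapped in each. Of the calcium-binding subunit, Tnnc1 (slow) was at 5.33, 108, 293 and 85.0 and at 0, 188 and 78.6, and Tnnc2 (fast) at 0, 13.5, 75.9 and 0 and at 0, 14.4 and 7.81. Tnnc2 rested on 0 to 37 reads in each WT library and could not be told from 0 in WT1 and WT4 at this depth.

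The remaining thin filament genes set or cap filament length. Neb, which encodes the ruler protein nebulin, ranged from 96.0 to 245 in WT and from 11.3 to 230 in dyW (log2 fold change -1.23 ± 1.01). The tropomodulin genes Tmod1 and Tmod4, whose products cap the pointed end, had log2 fold changes of -2.65 and -3.04, and the leiomodin genes Lmod2 and Lmod3, whose products nucleate or elongate actin there, -1.25 and -1.81. None of these 5 passed a threshold, and in each at least 1 dyW library exceeded the lowest WT library.

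Of the 8 thick filament genes, 1 was lower at an adjusted p under 0.05, Mybpc2, and the median log2 fold change was -2.56, or -0.95 without dyW1. The fast regulatory light chain gene Mylpf was at 128, 6119, 10782 and 6388 normalized counts in WT and 11.9, 1665 and 1714 in dyW. WT1 was low too, so the groups overlapped, but dyW2 and the library labelled dyW3 lay below WT2, WT3 and WT4. The log2 fold change was -3.03 ± 2.01 (adjusted p = 0.277), and -2.15 (adjusted p = 0.0169) without WT1 and dyW1. The essential light chain gene Myl1 was at 107, 2748, 9906 and 1913 in WT and 4.09, 2502 and 1729 in dyW (log2 fold change -2.46 ± 2.23, adjusted p = 0.427), and Myl4, the fetal and atrial form, at 53.3, 175, 339 and 208 and at 25.7, 189 and 241 (-0.59 ± 0.94, adjusted p = 0.659). Both overlapped. The slow and ventricular light chain genes were low throughout, Myl2 between 18.9 and 32.0 in WT and between 0 and 20.4 in dyW, and Myl3 between 10.7 and 47.2 and between 0 and 52.9.

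Myosin-binding protein C sits on the thick filament and tunes its engagement with actin. The fast gene Mybpc2 (chr7:44150793-44174153) was at 10.7, 29.7, 16.4 and 37.8 normalized counts in WT and 0, 8.73 and 0.488 in dyW. Every dyW library lay below every WT library, from 2 to 12 reads a library in WT and 0, 69 and 1 in dyW (log2 fold change -3.19 ± 0.96, adjusted p = 0.0339). The slow gene Mybpc1 was at 26.7, 91.7, 220 and 78.7 in WT and 3.51, 129 and 78.6 in dyW, and overlapped (-1.19 ± 1.22, adjusted p = 0.483). Mybph, a relative of both, was at 10.7 to 16.4 in WT and at 0, 0 and 11.7 in dyW, where only the library labelled dyW3 held reads (-2.66 ± 1.0, adjusted p = 0.0718, and -3.88 with adjusted p = 0.00296 without that library).

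Of the 4 genes of titin and the M-band, 2 were lower at an adjusted p under 0.05 and their median log2 fold change was -2.44, or -1.71 without dyW1. Ttn (chr2:76534136-76812891), which encodes the elastic giant titin, was at 203, 556, 377 and 544 normalized counts in WT and 31.9, 166 and 42.5 in dyW. All 3 dyW libraries lay below all WT libraries (log2 fold change -2.66 ± 0.71, adjusted p = 0.0201; exact permutation p = 0.0571, the smallest it allows). The value was -2.20 ± 0.76 without dyW1 (adjusted p = 0.0594) and -1.43 ± 0.71 with voom (adjusted p = 0.173). It was 4.14 ± 1.76 (limma adjusted p = 0.274) with the receptor level described below subtracted, which takes no reads from dyW1 and dyW2. Myom3 (chr4:135487017-135542875), a myomesin that crosslinks thick filaments at the M-band, was at 58.6, 48.5, 45.1 and 59.8 in WT and 0.780, 22.0 and 0.488 in dyW. The WT libraries lay close together and above all dyW libraries (-3.77 ± 1.01, adjusted p = 0.0201). The other myomesin genes overlapped: Myom1 was at 41.0 to 59.8 in WT and 7.08 to 60.6 in dyW, and Myom2 at 5.33 to 51.2 and 0 to 60.3.

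The 19 Z-disc genes held 2 that were lower at the looser threshold, Xirp1 and Actn3, and their median log2 fold change was -1.65, or -0.02 without dyW1. Xirp1 (chr9:119842821-119852664), whose product Xin binds actin at adhesion and repair sites of striated muscle, was at 32.0, 27.0, 4.10 and 34.6 normalized counts in WT and 0, 0.127 and 0 in dyW. These values rest on 6, 10, 2 and 11 reads in WT and on a single read in dyW2. Every dyW library lay below every WT library (log2 fold change -4.28 ± 0.86, adjusted p = 0.00572). The stricter threshold was missed when WT1, WT2, WT4, dyW1 or dyW2 was left out, with adjusted p from 0.0105 to 0.0231 and log2 fold changes from -4.34 to -4.01. Without WT2, WT4 or dyW2, 0.0% of all genes passed that threshold, against 18.6% without WT1 and 7.76% without dyW1. Pooled reads, scaled by the value of 1 read, gave a WT level 430-fold that of dyW, with a 95% counting interval of 71.3 to 17560 that covers counting error only. Its relative Xirp2 was at 37.3, 62.0, 47.2 and 62.9 in WT and 0.195, 5.69 and 29.3 in dyW, also without overlap but past no threshold (-3.07 ± 1.05, adjusted p = 0.0550).

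α-Actinin crosslinks actin at the Z-disc. Actn3, the fast-fiber gene on chr19:4911215-4928529, was at 21.3, 35.1, 22.6 and 15.7 normalized counts in WT and 0.487, 12.3 and 0.488 in dyW. No dyW library reached the lowest WT library (log2 fold change -2.94 ± 0.94, adjusted p = 0.0418). Actn2, expressed in all fiber types, was at 48.0, 78.2, 82.1 and 72.4 in WT and 0, 85.2 and 0.488 in dyW. dyW2 exceeded every WT library while the other dyW libraries were at or near 0 (-3.79 ± 1.43, adjusted p = 0.0726). Filamin C (Flnc), another actin crosslinker, and the PDZ-LIM gene Pdlim3 had no overlap between groups either. Flnc was at 112 to 173 in WT and 64.4 to 102 in dyW (-0.74 ± 0.53, adjusted p = 0.310), and Pdlim3 at 50.4 to 105 and 1.27 to 30.6 (-2.76 ± 0.95, adjusted p = 0.0575).

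Several Z-disc genes lay within or above the WT range in dyW2 and the library labelled dyW3. Cryab, encoding the small heat shock protein αB-crystallin that guards desmin and titin, had the highest mean of the Z-disc genes over all 7 libraries, although in WT alone its mean of 232 was below the 289 of Csrp3. It was at 15.99, 210, 556 and 145 in WT and 7.80, 846 and 390 in dyW. dyW2 was the highest of all libraries and dyW1 the lowest (log2 fold change 0.13 ± 1.66, adjusted p = 0.960). Tcap, the titin cap, was at 0, 16.2, 30.8 and 6.29 in WT and 0, 54.6 and 11.2 in dyW (0.15 ± 1.57, adjusted p = 0.951), from at most 15 reads in a WT library. Pdlim5 was at 64.0, 151, 152 and 145 and at 96.8, 159 and 254 (0.38 ± 0.60, adjusted p = 0.658), and it was 1 of 5 genes, with Tpm1, Tpm2, Pdlim7 and Myom1, whose reads in dyW1 gave a level inside the WT range. Of the calsarcin genes, whose products tether calcineurin at the Z-disc, Myoz1 was at 42.7, 108, 318 and 88.1 in WT and 0, 122 and 138 in dyW, and Myoz2 at 10.7, 116, 283 and 123 and at 0, 165 and 254. dyW1 held no read of either and the other dyW libraries lay within the WT range. The remaining Z-disc genes, Nebl, Ldb3, Myot, Des, Csrp3, Ankrd1 and Smpx, overlapped between groups, with log2 fold changes from -3.14 for Myot to -0.43 for Ankrd1. Des, encoding the intermediate filament desmin, was at 21.3 to 156 in WT and at 0, 111 and 85.5 in dyW.

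None of the 4 assembly genes passed a threshold, with a median log2 fold change of -2.73, or -1.86 without dyW1. Klhl41, a stabilizer of nebulin and the most abundant of them, was at 64.0, 35.1, 86.2 and 25.2 normalized counts in WT and 0, 13.3 and 124 in dyW. The library labelled dyW3 exceeded every WT library and the other dyW libraries lay below all (-1.99 ± 1.44, adjusted p = 0.319). Smyd1 and Unc45b, encoding a methyltransferase and a chaperone needed for myosin folding, had no overlap between groups, at 32.0 to 53.3 and 0 to 17.5 for Smyd1 (-2.94, adjusted p = 0.0599) and at 18.5 to 44.1 and 0 to 16.1 for Unc45b (-2.60, adjusted p = 0.0808). Trim63, encoding the ubiquitin ligase MuRF1, overlapped through the library labelled dyW3, at 18.1 against 10.3 to 31.5 in WT.

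**Figure D3:**
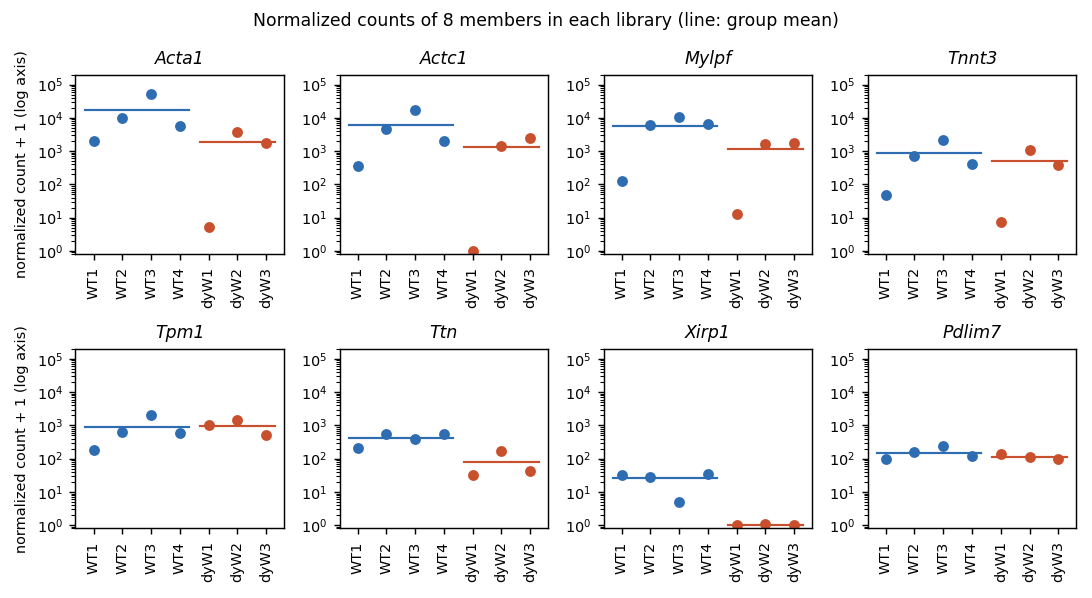
Normalized count + 1 of 8 genes in each library on a log axis, WT in blue and dyW in orange, with a line at each group's mean. Acta1, Actc1, Mylpf and Tnnt3 are far lower in dyW1 than in the other dyW libraries, Tpm1 and Pdlim7 are not, and Xirp1 is at or near 0 in all 3 dyW libraries.

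Ratios between partner genes compare RNAs within the same library. They are log2 ratios of recovered reads with 0.5 reads added to each gene, over 12 pairs. In 11 pairs the groups overlapped. For Mybpc1 over Mybpc2, slow over fast, the log2 ratio was 1.14, 1.59, 3.66 and 1.03 in WT and 6.19, 3.87 and 6.75 in dyW, so every dyW library lay above every WT library (difference 3.75; p = 0.0571 by an exact permutation test with both sides counted, the smallest possible, and 0.686 after Benjamini-Hochberg adjustment over the 12 pairs). The ratio was set by 2 to 12 reads of Mybpc2 in each WT library, and by 0 and 1 in dyW1 and the library labelled dyW3, whose ratios thus depend on the 0.5 reads added. With 5 reads added (difference 2.44, exact permutation p = 0.114) or with the receptor level described below subtracted (2.23, exact permutation p = 0.400) the groups overlapped. The slow over fast ratios of troponin subunits did not move one way: Tnni1 over Tnni2 was -2.52 to -1.54 in WT, -2.42 in dyW2 and -1.75 in the library labelled dyW3, but 4.27 in dyW1. Tnnt1 over Tnnt3 was -3.05 to -0.16 in WT and -3.31 to -2.10 in dyW. Actc1 over Acta1 was -2.48 to -1.11 in WT, -6.41 in dyW1, -1.40 in dyW2 and 0.49 in the library labelled dyW3, so the dyW libraries lay on both sides of the WT range. Both genes of a pair had 3 reads or fewer for Tnnc1 and Tnnc2 in WT1 and dyW1, for Myoz1 and Myoz2 in dyW1 and for Actn2 and Actn3 in the library labelled dyW3.

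**Figure D4:**
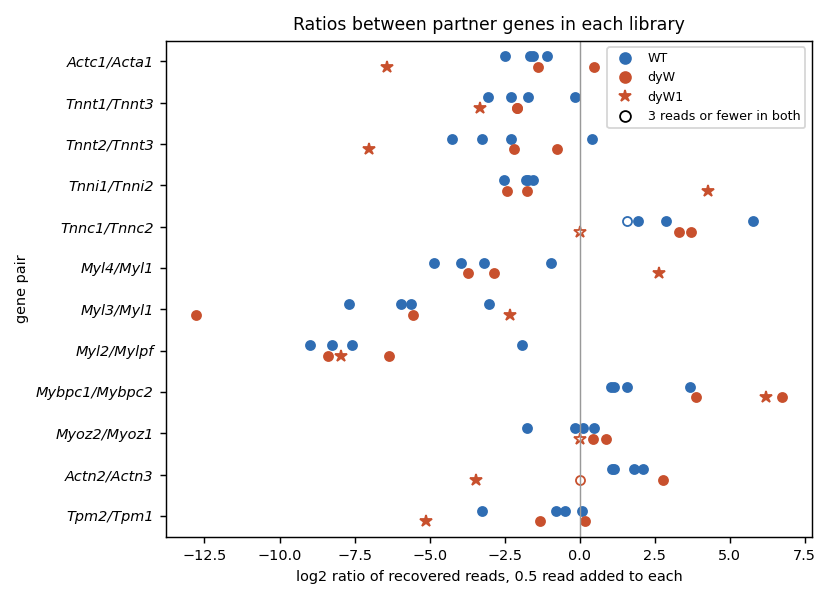
Log2 ratio of reads between partner genes in each library, with WT in blue, dyW in orange and dyW1 as a star; open symbols mark libraries with 3 reads or fewer of both genes. dyW1 lies apart from the other libraries in several pairs, and Mybpc1 over Mybpc2 is the pair whose groups do not overlap.

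The low-level members were also set beside genes that muscle is not known to use. Over 1208 odorant and vomeronasal receptor genes, the median was 0.632, 2.48, 1.76 and 1.85 reads per kb of exon in WT1 to WT4 and 0, 0 and 1.07 in dyW1 to dyW3. Relative to that level, 11 sarcomere genes held at least 2 times as many reads per kb in every WT library (Acta1, Actc1, Myl1, Myl4, Mylpf, Myoz1, Pdlim7, Tnni2, Tnnt1, Tnnt3 and Tpm1), and of these 0 were lower at an adjusted p under 0.05 (29.6% of the 1933 tested genes at such a level) and all 11 overlapped between groups (64.3%). Another 14 lay below 2 times the receptor level in every WT library, Ttn (0.512 to 0.887 times), Xirp1 (0.182 to 1.52), Mybpc2 (0.546 to 1.12) and Actn3 (0.535 to 1.25) among them, so 4 of the 5 genes lower at that threshold came from these 14 (28.6%, against 30.2% of the 11537 tested genes below that level), and 8 of the 14 overlapped (57.1%, against 64.9%). Myom3 was at 1.2 to 2.88 times. After subtraction of the receptor level from every gene by its exon length, 0 sarcomere genes were lower or higher at an adjusted p under 0.05 (0.0898% and 0.226% of all genes) with 3 at an unadjusted p under 0.05 (5.88%, against 18.3% of all genes), and the median log2 fold change was -0.17 against 0.30 for all genes. Since that level was 0 in dyW1 and dyW2, the subtraction took reads from the WT libraries and the library labelled dyW3 only. For genes near that level it lowers WT against dyW by construction, so it cannot decide whether they differ. Where the reads on receptor genes come from was not tested. Per kb of exon, the mean WT level had a median of 21.3 normalized counts over the 31 sarcomere genes shorter than 6 kb and of 7.78 over the 20 longer ones. Across the 51 genes, level per kb and length (both log2) had a Pearson correlation of -0.46 and a Spearman correlation of -0.51, given as a description of genes that share the same 4 libraries.

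**Figure D5:**
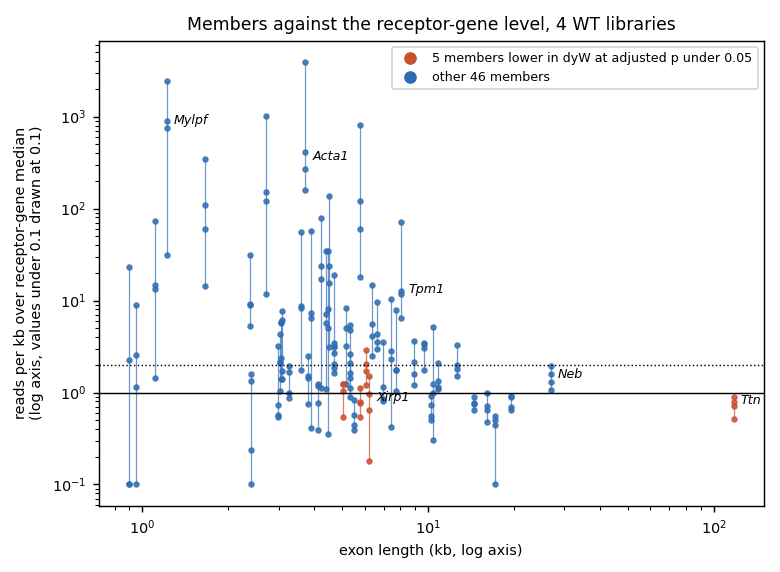
Reads per kb of each of the 51 genes divided by the median of the receptor genes in the same library, against exon length, both on log axes; each line joins the 4 WT libraries of a gene. The 5 genes lower in dyW at an adjusted p under 0.05 (orange) lie near or below the receptor-gene median (solid line) or, for Myom3, on both sides of 2 times that level (dotted line), whereas Acta1 and Mylpf lie far above it.

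Other genes of the sarcomere were described from a list of 46, of which 45 were in the table and 43 were tested. Of these 7 were lower at an adjusted p under 0.01 (Nrap, Lmod1, Mybpc3, Mybphl, Alpk3 and Ankrd23 among them; 16.3%, against 18.7% of all genes) and 0 higher. Nrap, Lmod1, Mybpc3 and Mybphl lay below 2 times the receptor level in every WT library. At 0.05 the counts were 12 and 1 (27.9% and 2.33%, against 29.6% and 1.0%), so the shares lay near the background, and the higher gene was Capza2, an actin capping subunit found in many cell types (log2 fold change 2.72 ± 0.72, adjusted p = 0.0190). The 2 most abundant, Fhl1 and Tpm4, overlapped. Fhl1 was at 37.3 to 1580 normalized counts in WT and 116 to 716 in dyW, and Tpm4 at 128 to 1257 and 713 to 1625. Of the 8 sarcomeric myosin heavy chains, 5 were lower at 0.01 (62.5%, against 18.7% of all genes), namely Myh1, Myh2, Myh6, Myh7 and Myh7b, all at 6.15 to 48.5 in WT and at 0.197 to 1.41 times the receptor level there. The developmental chains, Myh3 and Myh8, overlapped. Of 12 other myofiber genes, 11 were tested and 1 was lower at either threshold (9.09%, against 18.7% and 29.6%), namely Cacna1s (the calcium channel subunit of the T-tubule, -4.09 ± 0.77, adjusted p = 0.00478, at 0.196 to 0.597 times the receptor level in WT). The 2 most abundant of them, Aldoa and Slc25a4, overlapped, and the summed level of the 12 was 821 to 9518 in WT and 622 to 2488 in dyW, lowest in dyW1. Of 7 cardiac genes, 3 were in the table (Myh6, Mybpc3 and Gata4), at 48.0 to 107 in sum in WT and at 0 in every dyW library. In WT they lay at 0.568 to 0.952, 0.760 to 1.95 and 0.278 to 0.896 times the receptor level. Every dyW library lay below every WT library for 31.5% of all tested genes. Summed levels of other cell types were 90.6 to 291249 in WT and 14.8 to 171958 in dyW for 7 erythroid genes found of 9, 133 to 658 and 58.1 to 908 for 8 immune genes, 181 to 2295 and 130 to 1140 for 6 smooth muscle genes, 160 to 315 and 8.28 to 768 for 7 neural genes, and 69.3 to 365 and 28.7 to 631 for 6 myogenic progenitor genes. Each of these sums overlapped between groups, and each was lowest in dyW1, as the sum over the sarcomere genes was.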

How the data were processed

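Muscle fiber RNA of 7 fetuses was measured by SMART-seq2, in which full-length cDNA of polyadenylated RNA is amplified without molecular identifiers, and Nextera XT libraries were sequenced on a NextSeq instrument. Cutadapt trimming, alignment to GRCm39 by RNA STAR and gene counting of uniquely mapped reads by FeatureCounts were done by the authors, who deposited counts divided by 1 DESeq2 size factor per library. Versions, annotation release and strand setting are not given in the sources used here, so reads of overlapping or antisense genes are uncertain. The authors also deposited fold changes and p-values of their own comparison, which were not used.

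The deposited values are 100% whole multiples of 1 step per library (tolerance 0.02), and division by the step recovered 470804 to 18297106 reads per library; intervals cover counting error only. The 25791 of 31531 genes whose mean normalized count reached 5 were compared on log2(normalized count + 1) with lmFit and eBayes (trend) of limma 3.58.1 under R 4.3.3, without a replicate block, and p-values were adjusted by Benjamini-Hochberg. On that scale the fold change of a low gene depends on the 1 added to each count. For Xirp1 it was -4.28, against -7.17 with 0.1 added. Tnnc2 (-0.17 and 0.33) and Tcap (0.15 and -0.097) instead changed sign. Ratios, the share of counts and single genes were tested with exact two-sided permutation of the library labels (35 arrangements). Other values were computed with pandas 2.3.3, numpy 2.4.6 and scipy 1.17.1 under Python 3.11.15 and drawn with matplotlib 3.10.9. The limma fit was tested on simulated data. Exon lengths, coordinates, upstream windows and transcripts came from a GENCODE annotation of GRCm39, which held 99.2% of the gene identifiers.

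The genes and lists were chosen with earlier results of these data known. Named in full are genes past the stricter threshold, the most abundant gene of each role, the 5 most negative and 5 most positive fold changes and the genes of the 12 ratios. Other names are given by range, or were chosen after their values were seen where a count or a library singled them out. Of the further lists, genes past the stricter threshold and the 2 most abundant are named, except for 1 gene that is not reported here, and lists of 9 erythroid, 8 immune, 6 smooth muscle, 7 neural and 6 progenitor genes were summed. The replicate numbers were checked and did not pair the libraries. Each library was left out in turn. Further alternatives were the pseudocounts 0.1 and 10, no filter or a mean of at least 50, the same total, quantile normalization, a replicate block, voom and subtraction of the receptor level. Leaving out WT1 and dyW1 together was added after seeing the data.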

Additional observations from a re-analysis of the deposited data

Results flagged for a closer look

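In 4 of the 65 sets of 4 WT values tested, a single WT library lay far from the other WT libraries, with a gap to its nearest neighbour above Dixon's 95% critical share of the whole range, where chance gives about 1 in 20. Acta1 was at 52989 normalized counts in WT3, Flnc at 173 in WT4, Pdlim5 at 64.0 in WT1 and Smyd1 at 32.0 in WT1. For Acta1 and Flnc the library lay above the others, and for Pdlim5 and Smyd1 below them. The 3 dyW libraries are too few for this comparison.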

How the results depend on the processing

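Of the 51 sarcomere genes, 0 were lower at an adjusted p under 0.01 with a pseudocount of 10, a mean of at least 50 (29 genes tested), the same total, quantile normalization, the receptor level subtracted, or WT1 and dyW1 left out, and 0 to 4 with single libraries left out. Under each of those first 6 settings at most 2 genes of the whole table passed that threshold, so these counts describe the settings and not the sarcomere genes. At 0.05 the count of 5 became 6 with a pseudocount of 10 (11.8%, against 12% of all genes), 3 with a pseudocount of 0.1 and without WT1 and dyW1 (27.2% and 30.8% of all genes), 1 with the same total or voom (20.7% and 26.6%), 0 with a mean of at least 50, quantile normalization or the receptor level subtracted (0.0491%, 0.318% and 0.0898% of all genes), and 1 to 15 with single libraries left out. Of the other sarcomere genes, 0 were lower with a pseudocount of 10, a mean of at least 50, the same total, quantile normalization, the receptor level subtracted or without WT1 and dyW1, and 0 to 10 with single libraries left out (0.0% to 25.8% of all genes), while 1 was higher with voom (0.268%) and 0 to 1 with single libraries left out (0.0% to 0.0972%). With a replicate block, 0 sarcomere genes were lower at either threshold (1 and 2 of all genes) and 0 other sarcomere genes at 0.01, but the correlations between libraries of the same number, 0.147, -0.0494 and -0.0880, gave no pairing. A planned count-based test in edgeR and another in DESeq2 were not run. The median log2 fold change of the 51 genes was -0.17 with the receptor level subtracted (0.30 for all genes), -1.54 with a mean of at least 50 (0.20), -0.94 with quantile normalization (0.06), -2.44 with voom (-1.70) and -2.98 to -0.54 with single libraries left out (-2.54 to -1.77), and that of Lama2 was 0.98 with the receptor level subtracted and -4.09 to -1.72 with single libraries left out, lowest without the library labelled dyW3. Xirp1, which is too low to be tested at a mean of at least 50, kept its sign in the other 16 alternatives and missed the stricter threshold in 11 of them. The cause of these shifts was not tested.

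Signs changed in 44 of 484 alternatives over 29 named genes, and none of the changed values passed a threshold. Ttn and Mybpc2, which were lower at an adjusted p under 0.05 in all libraries, were among the genes whose sign changed. Subtraction of the receptor level takes no reads from dyW1 and dyW2 and so shifts low genes upwards by construction. With it, log2 fold changes were 4.14 for Ttn, 0.014 for Tnnc2, 0.16 for Tnnt2, 0.43 for Mybpc1, 0.016 for Myoz2, 0.34 for Tpm2 and 0.51 for Mybpc2. With the same total they were 0.43 for Tnnc2, 0.55 for Myl4 and 0.79 for Tpm2, with quantile normalization 1.0 for Tnnc2 and -0.28 for Pdlim5, with voom -0.038 for Tcap and 0.14 for Myl4, and with a pseudocount of 0.1 they were 0.33 for Tnnc2 and -0.097 for Tcap. Without WT1 and dyW1 they were 0.17 for Tnnc2, -0.097 for Tpm1, 1.39 for Tnnt2 and 0.36 for Myoz2. With single libraries left out, the ranges were -1.16 to 2.14 for Cryab, -1.01 to 1.08 for Tnnc2, -1.18 to 1.72 for Tcap, -0.028 to 1.16 for Tpm1, -3.33 to 0.33 for Tnnt1, -2.45 to 1.5 for Tnnt2, -3.00 to 0.62 for Tnnt3, -2.28 to 0.0080 for Tnni1, -4.53 to 0.17 for Tnni2, -2.86 to 0.92 for Tnnc1, -1.18 to 0.41 for Myl4, -2.11 to 0.31 for Mybpc1, -2.69 to 1.31 for Myoz2, -1.70 to 1.08 for Tpm2, -4.04 to 0.44 for Myl1 and -3.28 to 0.28 for Myoz1. The upper end was the value without dyW1 in each of these except Tnnc2 and Tpm1, where it was without WT3.

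The difference in the share of counts was -0.618 to 0.0909 percentage points with single libraries left out and -1.07 with the total taken without mitochondrial and rRNA genes (1.80% in WT and 0.725% in dyW; exact permutation p = 0.514). Of the ratios, 19 of 120 alternatives changed sign. With 5 reads added, the difference was 0.29 for Actc1 over Acta1, 0.022 for Tnnt2 over Tnnt3 and 0.48 for Tnnc1 over Tnnc2, and with the receptor level subtracted it was 0.13 for Tnnt2 over Tnnt3 and 0.78 for Myl2 over Mylpf. Without WT1 and dyW1 it was 0.98 for Actc1 over Acta1, 0.25 for Tnnt1 over Tnnt3, 1.80 for Tnnt2 over Tnnt3, -0.15 for Tnni1 over Tnni2 and 0.90 for Myl2 over Mylpf. With single libraries left out, the ranges were -2.21 to 1.24 for Actc1 over Acta1, -2.25 to 0.88 for Tnnt2 over Tnnt3, -0.19 to 3.15 for Tnni1 over Tnni2, -1.40 to 0.45 for Tnnc1 over Tnnc2, -0.036 to 3.15 for Myl4 over Myl1, -3.61 to 1.63 for Myl3 over Myl1, -1.64 to 0.71 for Myl2 over Mylpf and -2.11 to 0.55 for Tpm2 over Tpm1. Mybpc1 over Mybpc2 kept its direction in each of its 10 alternatives, but its groups overlapped with 5 reads added or the receptor level subtracted. In WT1 16 of the 51 genes rested on 3 reads or fewer (31.4%, against 42.3% of all genes), and in dyW1 25 did (49%, against 43.5%).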
